A study of Mus musculus with 10 samples.

Results

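The genes described here are 9 pluripotency factor genes, Pou5f1, Nanog, Sox2, Klf2, Klf4, Esrrb, Zfp42, Tfcp2l1 and Utf1, chosen by symbol as genes that are active in mouse embryonic stem (ES) cells. All 9 of 9 were found among the 24500 counted genes. The series holds 10 ChIP-seq libraries from E14 ES cells, a mouse line of strain 12910la kept with serum and leukemia inhibitory factor, and no feeder cells are named in the sources used here. Control cells are wild type. The other libraries are titled Ezh2KO, and their genotype is given as a knockout of Ezh2 exon 14. They were taken here to be the study's ex14D cells, although the study also used other Ezh2 knockout cells and the labels do not use the name ex14D. In ex14D cells this exon was disrupted with CRISPR-Cas9, which leaves the splice form of Ezh2 without exon 14 as the working one. The study also reported much less EZH2 protein in these cells than in control. The form and the amount of EZH2 therefore differ together between the genotypes and cannot be told apart here. Each genotype has 1 input library, 2 H3K27me3 libraries and 2 EZH2 libraries. The sources used here do not say whether the 2 libraries came from separate cultures or clones, so p-values measure the spread between these libraries, which may be technical. Which colony or line each library came from is not given, and no RNA was measured in these libraries.

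EZH2 is the catalytic subunit of polycomb repressive complex 2 (PRC2), which places methyl groups on lysine 27 of histone H3. The trimethylated form, H3K27me3, lies over CpG-rich promoters of genes that are kept silent, such as regulators of later lineages, and is usually scarce over promoters of highly transcribed genes. In ES cells Pou5f1 (OCT4), Sox2 and Nanog form the core of the self-renewal network. Klf2, Klf4, Esrrb and Tfcp2l1 are transcription factors of the naive state, which support this core downstream of cytokine and kinase signalling. Zfp42 (REX1) and Utf1 are widely used markers of undifferentiated cells.

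The inputs had 409371 (control) and 416778 (ex14D) reads on genes. The range was 594289 to 1450937 for H3K27me3 and 13628137 to 18403892 for EZH2. Inputs and H3K27me3 were counted over a 1 kb window centred on the most upstream transcription start site (TSS). Reads on genes made up 43.9% to 44.3% of counted EZH2 reads, so the EZH2 counts were taken to be over whole genes. As a check of the labelled cell type, the defining genes of other lineages carried H3K27me3 and the members mostly did not. In both control libraries a peak lay over the TSS window of 15 of 16 primitive streak, endoderm, trophoblast and neural markers, the exception being Elf5. The summed H3K27me3 level of the feeder fibroblast markers Col1a1, Col1a2, Thy1 and Postn was 370.2 and 404.4 CPM in control and 261.2 and 200.3 CPM in ex14D, where CPM is the read count scaled to the reads on genes of its library. None of these 4 genes was called in ex14D against control by edgeR's quasi-likelihood test, though all 4 were below 0 and Thy1 fell with library size over genes as the scale. Of the 16 markers of the other lineages, 13 rose in ex14D and none fell, and 6 rose with library size over genes as the scale. In the difference between the genotypes in H3K27me3 over input, 2 of the 16 rose, Gsc and Neurog2. With library size over genes as the scale or with DESeq2, 0 did. EZH2 fell at 9 of the 11 of these markers that were tested and rose at 0. The summed H3K27me3 level of these 16 markers was higher in both ex14D libraries than in both control libraries for each of the 4 lineages. It ran from 1006.2 to 1815.6 CPM in control and from 1617.6 to 2542.4 CPM in ex14D. The part of this shift in the values of the members was not tested. ChIP counts do not show which cells were present.

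The promoters of the 9 genes differ widely in CpG content, which is the sequence feature most closely tied to PRC2. The 250 bases before the TSS are shown for the genes that the results turn on, taken from RefSeq on GRCm38.p6 and written in the direction of transcription, with each CG in capitals. All 9 members matched an entry.

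Klf4 (chr4:55532476-55532725, minus strand): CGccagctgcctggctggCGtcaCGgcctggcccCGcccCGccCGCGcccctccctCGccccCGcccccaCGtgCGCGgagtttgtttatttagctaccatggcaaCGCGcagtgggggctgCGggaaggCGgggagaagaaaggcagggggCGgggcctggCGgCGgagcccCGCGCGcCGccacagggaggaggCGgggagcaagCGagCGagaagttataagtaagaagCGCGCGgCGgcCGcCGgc

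Klf2 (chr8:72318812-72319061, plus strand): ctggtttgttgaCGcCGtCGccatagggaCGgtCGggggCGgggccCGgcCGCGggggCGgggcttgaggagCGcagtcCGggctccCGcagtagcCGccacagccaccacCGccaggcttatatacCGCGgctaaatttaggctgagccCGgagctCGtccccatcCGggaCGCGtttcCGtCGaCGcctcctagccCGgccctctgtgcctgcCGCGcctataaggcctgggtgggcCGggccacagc

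Sox2 (chr3:34649745-34649994, plus strand): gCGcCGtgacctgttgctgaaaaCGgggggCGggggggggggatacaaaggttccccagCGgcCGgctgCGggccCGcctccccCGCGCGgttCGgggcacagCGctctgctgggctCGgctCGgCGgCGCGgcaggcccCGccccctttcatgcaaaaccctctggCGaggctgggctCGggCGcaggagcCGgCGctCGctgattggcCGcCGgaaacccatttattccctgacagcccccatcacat

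Utf1 (chr7:139943606-139943855, plus strand): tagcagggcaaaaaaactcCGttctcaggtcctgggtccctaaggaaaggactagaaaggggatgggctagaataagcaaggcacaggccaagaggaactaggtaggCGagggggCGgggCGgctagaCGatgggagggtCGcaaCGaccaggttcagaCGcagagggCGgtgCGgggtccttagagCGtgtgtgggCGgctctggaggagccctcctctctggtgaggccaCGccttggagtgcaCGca

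Esrrb, upstream start (chr12:86360867-86361116, plus strand): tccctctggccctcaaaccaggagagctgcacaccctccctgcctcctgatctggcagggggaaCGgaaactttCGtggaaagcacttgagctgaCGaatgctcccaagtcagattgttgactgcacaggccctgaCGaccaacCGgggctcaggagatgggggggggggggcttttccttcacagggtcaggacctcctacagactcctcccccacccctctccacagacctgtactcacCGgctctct

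Esrrb, downstream start (chr12:86421394-86421643, plus strand): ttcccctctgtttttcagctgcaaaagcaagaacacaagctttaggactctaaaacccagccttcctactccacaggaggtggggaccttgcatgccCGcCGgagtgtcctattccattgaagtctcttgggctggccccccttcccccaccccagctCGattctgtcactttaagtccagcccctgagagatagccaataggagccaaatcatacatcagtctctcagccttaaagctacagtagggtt

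These 250 bases hold 32 CG in Klf4, 29 in Klf2, 27 in Sox2 and 14 in Utf1. Of 32851 RefSeq promoters, 4.58% hold as many as Klf4 and 29.4% as many as Utf1. The upstream start of Esrrb has 6 CG and the downstream start 3. The GC box GGGCGG, searched on both strands, occurred 4 times in Klf4, 4 times in Utf1, 2 times each in Klf2, Sox2 and Zfp42, once in Pou5f1 and not in Nanog, Esrrb or Tfcp2l1, and 32.7% of all promoters hold at least 1. In the same stretch of Nanog, the gene for a homeodomain factor, the capitals mark a match to the composite Oct-Sox element TTTGCATNACAATG instead of CG.

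Nanog (chr6:122707239-122707488, plus strand): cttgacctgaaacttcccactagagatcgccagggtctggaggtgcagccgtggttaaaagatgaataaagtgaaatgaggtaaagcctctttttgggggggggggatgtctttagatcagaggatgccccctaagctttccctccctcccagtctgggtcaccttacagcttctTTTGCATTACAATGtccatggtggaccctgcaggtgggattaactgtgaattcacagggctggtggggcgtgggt

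Among the 32851 promoters, 2 held this element on either strand, and both were the overlapping promoters of 2 annotated starts of Nanog. A match is a description of the sequence and not evidence of binding in these cells.

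Over the whole 1 kb window, the ratio of observed to expected CpG was 0.96 in Klf4, 0.83 in Sox2, 0.82 in Utf1 and 0.73 in Klf2. These 4 members lay above 0.6, as did 45.0% of all 24347 placed windows. The other 5 were Tfcp2l1 with 0.59, Zfp42 with 0.49, Pou5f1 with 0.33, Nanog with 0.29 and Esrrb with 0.28. Of windows at or above 0.6, 25.9% had an H3K27me3 peak in both control libraries, compared with 11.6% of windows below it. The median log2 value over input in control did not follow this order, at -0.19 for the former and -0.06 for the latter. Of the 4 CpG-rich members only Klf4 had such a peak, and none of the 5 CpG-poor members did.

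In control cells, 2 of the 9 promoters, Klf4 and Klf2, carried more H3K27me3 than input, whereas Zfp42, Utf1 and Nanog carried less. The test was edgeR's quasi-likelihood test on the 4 H3K27me3 and 2 input libraries with TMM scaling. With 1 input per genotype, the spread behind these p-values came from the H3K27me3 libraries, and variation between inputs was not measured. A value of 0 on the log2 scale means the same level as in input after this scaling, not the same share of reads on genes. The TMM factors were 2.23 and 2.22 for the inputs and 0.59 to 0.76 for H3K27me3. Esrrb, at 1.10 in control, had 0.73 and 0.75 times the share of its input. Higher than input were 25.2% of the 21261 genes tested, and lower 12.8%, so 2 and 3 of 9 members are counts to be read against these shares. Because reads on gene windows made up 1.9% of counted reads for input and 5.65% to 7.58% for H3K27me3, the choice of scaling matters here. With library size over genes as the scale, the median over all genes fell from -0.08 to -1.62 in control and from -0.24 to -2.11 in ex14D, and the values of Esrrb and Tfcp2l1 turned from above to below input in both genotypes and that of Utf1 in ex14D. With all counted reads as the scale the medians were 0.04 and -0.19.

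**Figure D1:**
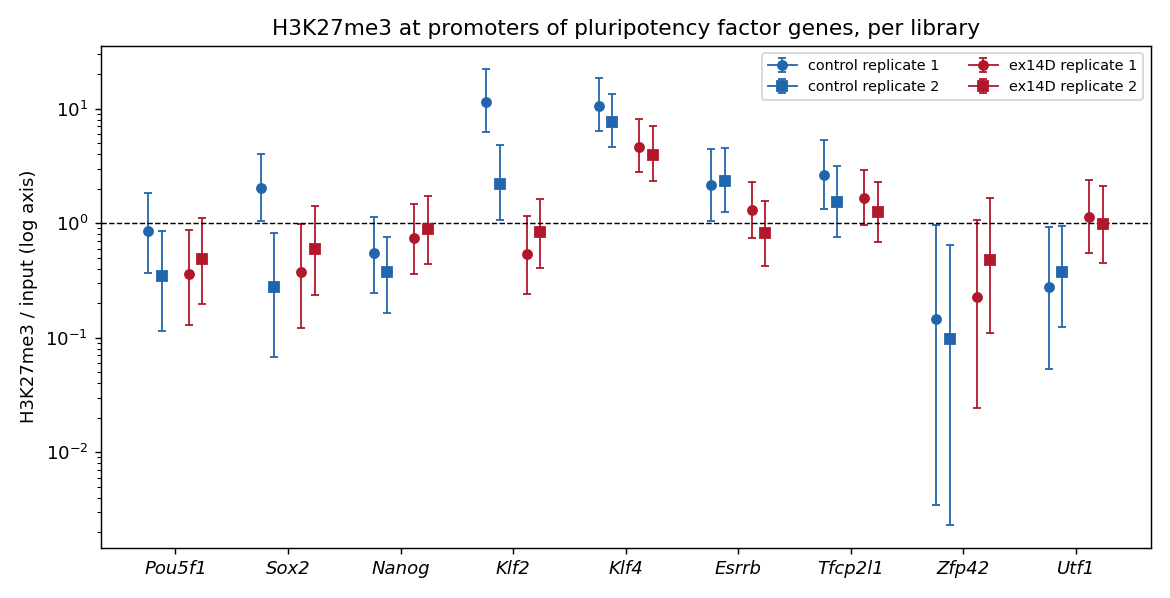
H3K27me3 count relative to input of the same genotype for each promoter, each scaled by all counted reads (vertical log axis, dashed line at 1, bars are exact 95% intervals from counting error only). Klf4 lies above input in all 4 libraries, from 3.96 to 10.6, while Klf2 lies above input in the control libraries and below it in the ex14D libraries.

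Klf4, a zinc finger factor used in reprogramming, had the highest mean H3K27me3 CPM of the 9 in both genotypes. It was counted 93 and 101 times in the control H3K27me3 libraries and 78 and 63 times in the ex14D libraries, against 18 and 19 times in the inputs of control and ex14D. Scaled to all counted reads, the ratio to input was 10.6 and 7.72 in control and 4.66 and 3.96 in ex14D. Every H3K27me3 library was thus above its input, with both ex14D libraries below both control libraries. By edgeR's quasi-likelihood test, Klf4 was 3.11 ± 0.45 (log2, SE) above input in control (adjusted p = 3.33e-10), higher than 89.7% of genes, and 2.07 ± 0.45 above input in ex14D (adjusted p = 4.00e-05), higher than 84.6%. In ex14D this was no longer called with library size over genes as the scale (0.19, adjusted p = 0.69).

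Klf2, the related factor that can substitute for Klf4 in ES cells, was counted 72 and 21 times in control, 11 and 16 times in ex14D, and 13 and 23 times in the 2 inputs. The ratios to input were 11.3 and 2.22 in control and 0.54 and 0.83 in ex14D. Control replicate 1 stood far above the other 3 libraries. Klf2 was 2.62 ± 0.53 above input in control (edgeR's quasi-likelihood test, adjusted p = 6.42e-06), but without control replicate 1 the value was 1.03 (adjusted p = 0.20), with library size over genes as the scale 1.09 (adjusted p = 0.060) and with DESeq2 2.70 (adjusted p = 0.091). In ex14D it was -0.56 ± 0.53 (adjusted p = 0.46).

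The core factors gave low counts. Pou5f1 was counted 10 and 6 times in control and 7 and 9 times in ex14D, with 24 and 22 in input. Sox2, the HMG-box partner of OCT4, was counted 20 and 4 times in control and 6 and 9 times in ex14D, with 20 and 18 in input. Nanog was counted 10 and 10 times in control and 15 and 17 times in ex14D, with 37 and 23 in input.

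The genotypes overlapped for Pou5f1 and Sox2. In CPM the Nanog groups overlapped too, at 16.8 and 10.7 in control and 10.3 and 13.6 in ex14D. Relative to input in control, edgeR's quasi-likelihood test gave -0.91 ± 0.55 for Pou5f1 (adjusted p = 0.18), -0.03 ± 0.53 for Sox2 (adjusted p = 0.97) and -1.23 ± 0.46 for Nanog (adjusted p = 0.026). The Sox2 value averages control libraries that differ, since it was -1.95 without control replicate 1 (adjusted p = 0.066) and 0.93 without control replicate 2 (adjusted p = 0.22). With library size over genes as the scale it was -1.57 (adjusted p = 0.0070). The Nanog call was lost without control replicate 2 (-0.95, adjusted p = 0.21) and with DESeq2 (-1.20, adjusted p = 0.31).

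Zfp42, a zinc finger gene, had almost no H3K27me3 reads, with 1 and 1 in control and 2 and 4 in ex14D against 14 and 10 in input. Its value relative to input in control, -3.05 ± 0.96 (edgeR's quasi-likelihood test, adjusted p = 0.0062), was higher than that of only 0.94% of genes, and it rests on 2 reads. Without control replicate 2 the call was lost (adjusted p = 0.075), and DESeq2 gave -3.13 with no adjusted p and an unadjusted p above 0.05.

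Utf1, a chromatin-associated factor, was counted 3 and 6 times in control and 17 and 14 times in ex14D, with 22 and 17 in input. Both ex14D libraries were above both control libraries, with ratios to input of 0.28 and 0.38 in control and 1.13 and 0.98 in ex14D. In control Utf1 was -1.63 ± 0.62 relative to input (edgeR's quasi-likelihood test, adjusted p = 0.025), and in ex14D 0.06 ± 0.52 (adjusted p = 0.95). The control call was lost when control replicate 1 (adjusted p = 0.089) or replicate 2 (adjusted p = 0.071) was left out, and DESeq2 gave -1.66 with no adjusted p and an unadjusted p above 0.05.

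Esrrb, an orphan nuclear receptor, was counted 18 and 29 times in control and 30 and 18 times in ex14D, with 17 and 26 in input. Tfcp2l1, a grainyhead-like factor, was counted 22 and 19 times in control and 35 and 25 times in ex14D, with 17 and 24 in input. In control both lay above input without passing the threshold, with 1.10 ± 0.49 for Esrrb (edgeR's quasi-likelihood test, adjusted p = 0.064) and 0.94 ± 0.50 for Tfcp2l1 (adjusted p = 0.13). In ex14D, 1 of the 9 members, Klf4, was above input and 0 were below, compared with 20.9% and 6.17% of all genes. At an unadjusted p under 0.05 by edgeR 1 member, Pou5f1, was below input in ex14D (-1.25 ± 0.55, adjusted p = 0.081), and with DESeq2 there was none.

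**Figure D2:**
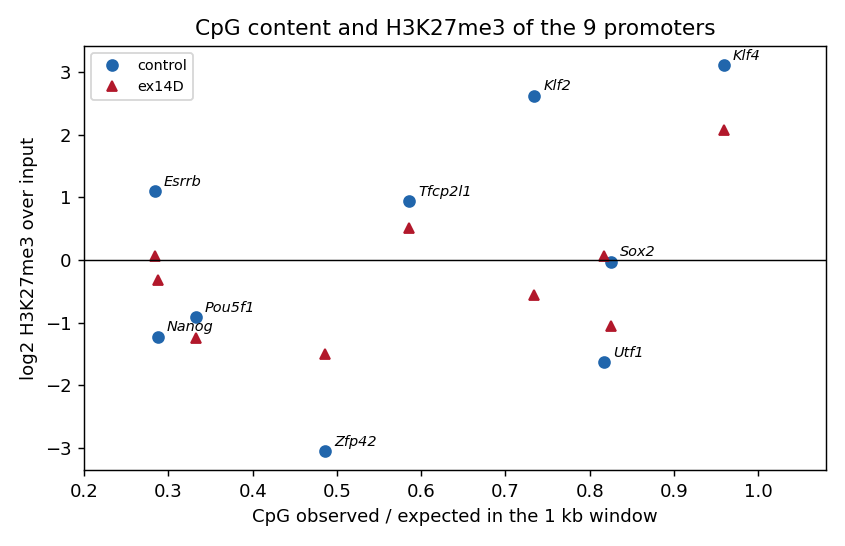
Log2 H3K27me3 over input from edgeR's fit (vertical axis) against the ratio of observed to expected CpG in the 1 kb window (horizontal axis), with circles for control and triangles for ex14D. Klf4 and Klf2, at 0.96 and 0.73 on the horizontal axis, are highest in control. Sox2 and Utf1, between them at 0.83 and 0.82, lie at -0.03 and -1.63 in control. The Sox2 value changes sign with the control library left out.

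The first comparison between genotypes asked whether H3K27me3 over these promoters differed in ex14D cells, where both the form and the amount of EZH2 differ. Of the 9 members, 6 passed the filter on low counts, and of these Klf2 and Klf4 fell and none rose. Over all 14883 genes tested, 3.19% fell and 5.85% rose by edgeR's quasi-likelihood test. The median log2 fold change was -0.10 over the 6 members and -0.02 over all genes. Pou5f1, Sox2 and Zfp42 were not tested because of their low counts. At an unadjusted p under 0.05, 1 member (Utf1) was higher by edgeR and none by DESeq2. Utf1 passed the filter only through its ex14D libraries, the group where it was higher. Its rise and its place in the median of the 6 members are therefore not independent of the filter.

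Klf2 had 121.2 and 22.4 CPM in control (71.8 ± 69.8, SD, n = 2) and 7.58 and 12.8 CPM in ex14D (10.2 ± 3.70, SD, n = 2). It fell by 2.29 ± 0.53 on the log2 scale (edgeR's quasi-likelihood test, adjusted p = 0.0053). Both control libraries were above both ex14D libraries, but control replicate 1 decided the size. Without it the change was -0.73 (adjusted p = 0.44). With DESeq2 the change was -2.45 (adjusted p = 0.16).

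Klf4 had 156.5 and 107.8 CPM in control (132.1 ± 34.5, SD, n = 2) and 53.8 and 50.5 CPM in ex14D (52.1 ± 2.32, SD, n = 2), with no overlap. It fell by 0.88 ± 0.28 on the log2 scale (edgeR's quasi-likelihood test, adjusted p = 0.044). This call lies close to the threshold. It held with DESeq2 (-0.97, adjusted p = 0.042) and was lost with all counted reads as the scale (-1.01, adjusted p = 0.087), and in each of the 4 fits that left out 1 library the change kept its direction, from -1.18 without control replicate 2 (adjusted p = 0.061) to -0.62 without control replicate 1 (adjusted p = 0.20), with adjusted p of 0.32 without ex14D replicate 1 and 0.44 without ex14D replicate 2.

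Utf1 had 5.05 and 6.40 CPM in control (5.73 ± 0.96, SD, n = 2) and 11.7 and 11.2 CPM in ex14D (11.5 ± 0.35, SD, n = 2). The groups did not overlap, and the change was 1.40 ± 0.55 on the log2 scale, which missed the threshold (edgeR's quasi-likelihood test, adjusted p = 0.13). Only the ex14D libraries carried Utf1 past the filter on low counts. Without the filter the change was 1.33 (same test, adjusted p = 0.17). Esrrb also did not overlap, with 30.3 and 30.9 CPM in control and 20.7 and 14.4 CPM in ex14D, and a change of -0.34 ± 0.35 (adjusted p = 0.66). In CPM over gene rows, 3 members were lower in both ex14D libraries than in both control libraries and 1 was higher, where 38.4% of all genes were lower and 12.7% higher. The change was 0.30 ± 0.45 for Nanog (adjusted p = 0.78) and 0.14 ± 0.37 for Tfcp2l1 (adjusted p = 0.89), and with library size over genes as the scale, which shifted the median of all genes to -0.47, both were below 0, at -0.15 and -0.31. The 95% interval of the Nanog difference ran from -0.59 to 1.19.

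When the difference between the genotypes in H3K27me3 over input was itself tested, Klf2 was the 1 member past the threshold, at -3.19 ± 0.75 on the log2 scale (edgeR's quasi-likelihood test, adjusted p = 0.026), where 0.0517% of genes were lower and 0.127% higher. At an unadjusted p under 0.05, 1 member (Utf1) was higher by edgeR and none by DESeq2 in this difference. For Utf1 the difference was 1.69 ± 0.81 (adjusted p = 0.55), and for Klf4 -1.03 ± 0.65 (adjusted p = 0.73). Each genotype has 1 input library, and DESeq2 called 0 genes of either direction in this comparison, with 47 lower and 172 higher at an unadjusted p under 0.05. The Klf2 call was lost without control replicate 1 (-1.60, adjusted p = 0.66), without ex14D replicate 1 (-2.87, adjusted p = 0.32) and without ex14D replicate 2 (-3.62, adjusted p = 0.24).

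**Figure D3:**
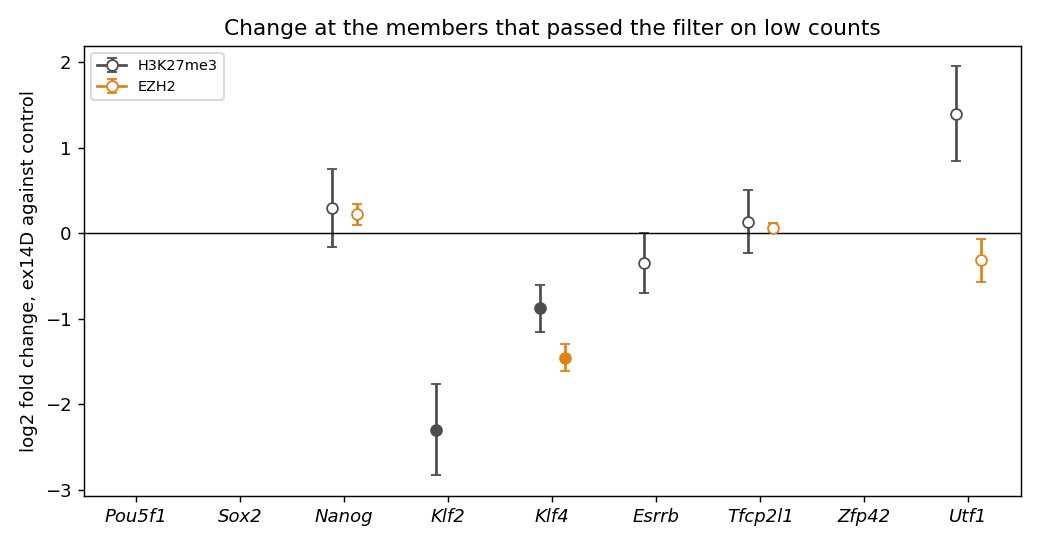
Log2 fold change in ex14D against control for H3K27me3 (grey) and EZH2 (orange) at the members that were tested, with bars of 1 SE and filled points for an adjusted p below 0.05 by edgeR's quasi-likelihood test. Klf4 lies below 0 in both assays, at -0.88 and -1.45, and a member without a point was not tested in that assay, for H3K27me3 because of low counts and for EZH2 because it is listed at 0.

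EZH2 reads were listed for 4 of the 9 members, Klf4, Nanog, Tfcp2l1 and Utf1. Per kb of gene, Klf4 had 5.40 and 4.92 CPM in control and 2.36 and 1.56 CPM in ex14D, compared with a median of 0.998 CPM per kb over genes with EZH2 reads. Utf1 had 1.43 and 1.90 CPM per kb in control and 1.40 and 1.40 in ex14D. Nanog had 1.16 and 1.07 CPM per kb in control and 1.28 and 1.38 in ex14D, and Tfcp2l1 had 0.93 and 0.93 in control and 0.96 and 1.04 in ex14D.

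In control the order of density was thus Klf4, Utf1, Nanog and Tfcp2l1, and both Klf4 libraries were above all those of the other 3. In control the mean placed Klf4 above 96.8% of genes with reads, Utf1 above 91.5%, Nanog above 76.5% and Tfcp2l1 above 42.1%. In ex14D these were 95.5%, 91.2%, 89.5% and 45.8%. The control value of Utf1 rests on 25 and 44 reads. In both control libraries the nearest EZH2 domain was 47.9 kb from the TSS of Utf1 and 93.5 kb from that of Nanog. Input was not counted over whole genes, so a density near the median was not compared with background here.

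Klf4 had 400 and 483 EZH2 reads in control and 172 and 137 in ex14D. In CPM this was 27.6 ± 1.85 in control and 10.5 ± 3.03 in ex14D (SD, n = 2), with no overlap, a fall of 1.45 ± 0.16 on the log2 scale (edgeR's quasi-likelihood test, adjusted p = 0.0040). Over all 13401 genes tested, 7.88% fell and 0.0522% rose, so 1 of 4 members tested fell and 0 rose. With DESeq2 the change was -1.44 (adjusted p = 6.69e-08). Leaving out a control library kept the size, at -1.38 without replicate 1 and -1.52 without replicate 2, but lost the call (adjusted p = 0.16 and 0.18), and no gene of all tested fell in either fit, with 1372 and 1300 lower at an unadjusted p under 0.05.

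For the other 3 members tested no change was called. Nanog changed by 0.22 ± 0.12 (edgeR's quasi-likelihood test, adjusted p = 0.45), Tfcp2l1 by 0.06 ± 0.06 (adjusted p = 0.71) and Utf1 by -0.32 ± 0.25 (adjusted p = 0.64). At an unadjusted p under 0.05 Klf4 was the 1 member by edgeR and by DESeq2. The intervals were narrow for Tfcp2l1, from -0.05 to 0.17, and wide for Utf1, from -0.81 to 0.18. Groups did not overlap in CPM for any of the 4 members, 2 lower and 2 higher in ex14D, where 17.8% and 34.9% of genes with reads were lower and higher. The median change was -0.13 over the 4 members and 0.02 over all genes.

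**Figure D4:**
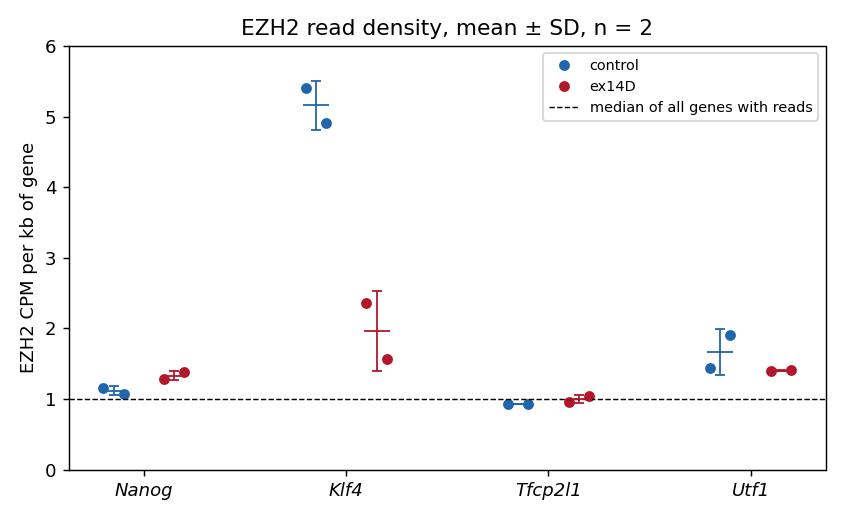
EZH2 CPM per kb of gene for the 4 members with EZH2 reads (points are libraries, bars are mean ± SD, n = 2, dashed line is the median of all genes with reads). The control libraries of Klf4 are at 5.40 and 4.92 and its ex14D libraries at 2.36 and 1.56, while the other members lie between 0.93 and 1.90.

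Pou5f1, Sox2, Klf2, Esrrb and Zfp42 are listed at 0 EZH2 reads in all 4 libraries, and for 4 of them the listing follows the position on the chromosome. Pou5f1 lies in an uninterrupted run of 603 counted genes at 0 on chromosome 17, Esrrb in a run of 662 on chromosome 12, and Klf2 and Zfp42 in the same run of 560 genes, 70.2 Mb long, on chromosome 8. Of all genes 43.2% are listed at 0, from 6.22% on chromosome 9 to 99.2% on chromosome 10. Domains of EZH2, called by the authors on the same libraries, lay over the TSS window of 16.0% of the genes listed at 0. A listed 0 was therefore not read as absence of EZH2. Sox2 lies within Sox2ot, a long noncoding RNA gene with 8648 EZH2 reads. Of counted EZH2 reads, 21.2% to 21.9% were set aside as ambiguous. Whether reads on Sox2 were among them was not tested.

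The called intervals give EZH2 at the members whose counts are listed at 0. An EZH2 domain overlapped the TSS window of Klf2 and Klf4 in both control libraries, 2 of 9 members, against 16.8% of all placed genes. In both ex14D libraries it overlapped Klf4 alone, against 10.4% of all placed genes. An H3K27me3 peak overlapped the window in both control libraries at Klf4, 1 of 9 against 18% of placed genes, and in both ex14D libraries again at Klf4, against 16.5%.

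At Klf4, on the minus strand of chromosome 4 (chr4:55527137-55532475), the EZH2 domain ran from 2.53 kb upstream to 2.47 kb downstream of the TSS in both control libraries. In both ex14D libraries it ran from 0.53 kb upstream to the same downstream end, 3 kb instead of 5 kb long. Domain ends fall on whole kb. The H3K27me3 peak downstream of the TSS was 2.74 kb long in control replicate 1 and part of a peak of 7.21 kb in replicate 2, and 1.86 kb and 1.33 kb long in ex14D. Its fold enrichment was 6.24 and 4.11 in control and 1.92 and 6.30 in ex14D, so the groups overlapped in this measure. These ex14D peaks began 223 and 468 bp downstream of the TSS, and covered 278 and 33 bp of the window. A separate H3K27me3 peak lay upstream, from -3.044 to -1.038 kb in control replicate 1 (2.33-fold enrichment). In ex14D it ran from -2.767 to -1.715 kb in replicate 1 (1.86-fold) and from -2.271 to -0.805 kb in replicate 2 (8.23-fold). In control replicate 2 the peak of 7.21 kb covered this stretch. The upstream peaks in ex14D thus lay outside the shorter EZH2 domain.

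At Klf2 (chr8:72319062-72321654, plus strand), both control libraries had an EZH2 domain of 2 kb, from 0.06 kb upstream to 1.94 kb downstream of the TSS. Control replicate 1 had an H3K27me3 peak of 2.36 kb beginning 36 bp downstream, with 3.35-fold enrichment. Control replicate 2 had a peak of 0.63 kb beginning 604 bp downstream, outside the window, with 1.86-fold enrichment.

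In ex14D no interval lay near Klf2. Its nearest H3K27me3 peaks were 51.1 and 183.3 kb away, and its nearest EZH2 domains 183.1 and 624.1 kb away. The printed stretch of the Klf2 promoter was overlapped by an EZH2 domain in 2 libraries and by an H3K27me3 peak in 0, and that of Klf4 by a domain in 4 and a peak in 1.

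**Figure D5:**
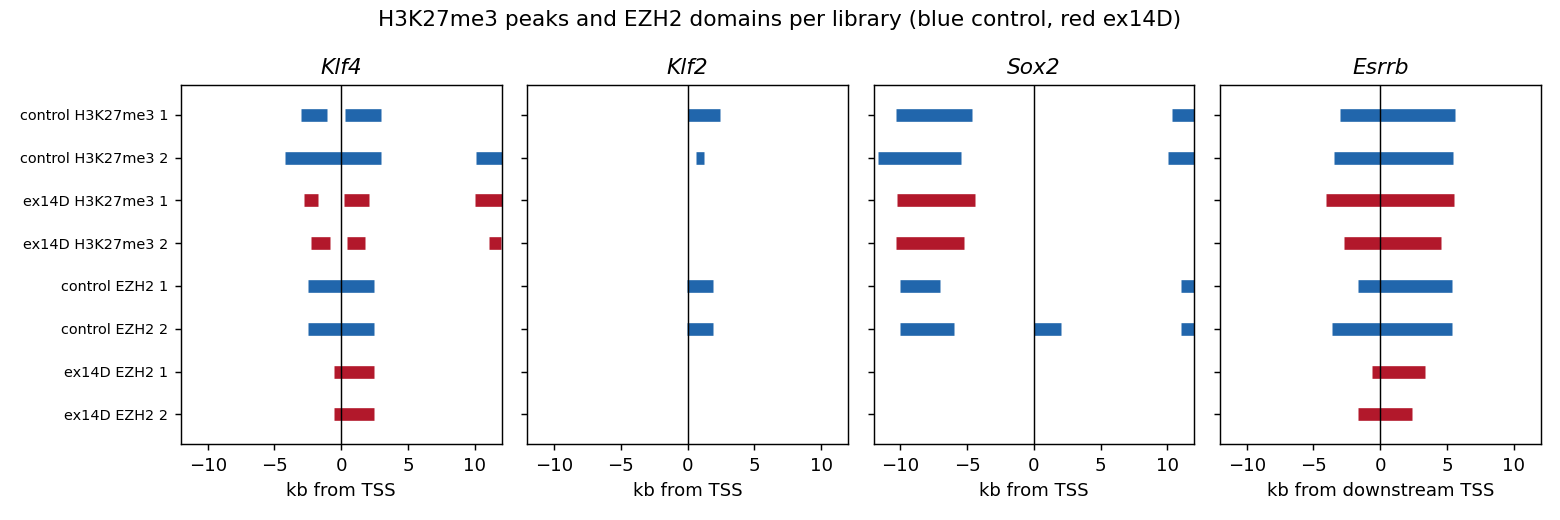
Called H3K27me3 peaks and EZH2 domains within 12 kb of the TSS of Klf4, Klf2 and Sox2, and those over the downstream TSS of Esrrb, in each library (horizontal axis in kb, upstream to the left, blue for control and red for ex14D). Klf2 has intervals in the 4 control libraries and none in the 4 ex14D libraries, and Esrrb has one in all 8.

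Sox2 (chr3:34649995-34652461, plus strand) had an H3K27me3 peak upstream of its window in all 4 libraries. It began 10.2 to 11.7 kb upstream and ended 4.41 to 5.45 kb upstream. The EZH2 domain in this stretch was called in both control libraries, 3 and 4 kb long, and control replicate 2 also had a domain of 2 kb over the TSS window. A further domain of 4 kb lay 11.0 kb downstream in both control libraries. H3K27me3 peaks overlapped this downstream site in both control libraries and in ex14D replicate 1 (1.30 kb long, 10.5-fold enrichment). None was called there in ex14D replicate 2. In ex14D the nearest EZH2 domain was 1870 kb away in replicate 1 and 1871 kb in replicate 2. The upstream H3K27me3 peak was thus called in libraries of a genotype in which no EZH2 domain was called nearby. Whether the EZH2 level there differed was not tested.

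Esrrb (chr12:86361117-86521628, plus strand) showed a pattern that its counted window does not hold. The window lies over the upstream start, where 0 of 4 H3K27me3 and 0 of 4 EZH2 libraries had an interval. The downstream start lies 60.5 kb further in, within the gene, and there all 8 libraries had one. The H3K27me3 peaks were 8.62 and 8.87 kb long in control and 9.53 and 7.25 kb in ex14D, and the EZH2 domains 7 and 9 kb in control and 4 and 4 kb in ex14D. The printed stretch at this start holds 3 CG.

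The remaining members had no interval over the window in any library. The H3K27me3 peaks nearest to Pou5f1 (chr17:35506032-35510777, plus strand) were 31.6 to 34.1 kb upstream, and those nearest to Nanog (chr6:122707489-122714633, plus strand) 78.3 to 88.6 kb upstream. Zfp42 (chr8:43295067-43307009, minus strand) had none within 297 kb in any of the 4 libraries. For Tfcp2l1 (chr1:118627945-118685168, plus strand), peaks ended 725 bp upstream of the TSS in control replicate 2, 669 bp upstream in ex14D replicate 1 and 2.97 kb upstream in ex14D replicate 2, and were 158 kb away in control replicate 1.

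For Utf1 (chr7:139943856-139945112, plus strand), the nearest H3K27me3 peak was 22.4 and 16.3 kb away in control and 4.79 and 4.17 kb downstream in ex14D. The study examined Utf1 by ChIP-PCR during differentiation. It reported new H3K27me3 there in ex14D cells, but at reduced levels, and a failure to establish it in Ezh2 knockout cells. That is another state of the cells than the one described here. The primers match the reference as follows and are shown because they place the assayed site.

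Utf1 forward primer: cttgggcgacatctcaaca

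Utf1 reverse primer: aaacggtttggtcgaagga

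The product spans 101 bp (chr7:139944819-139944919) in coding sequence, 963 bp downstream of the TSS and therefore outside the 1 kb window. No H3K27me3 peak and no EZH2 domain of the 8 libraries overlapped it.

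A wider list of 32 other pluripotency genes, chosen for their known roles, was set beside the 9 members. Of 17 tested for H3K27me3 in ex14D against control, 1 fell and 1 rose, with a median of -0.06, which is near the 3.19% and 5.85% of all genes. Nr0b1 (DAX1), a nuclear receptor that binds OCT4, fell from 65.6 and 24.5 CPM to 15.2 and 6.41 CPM, without overlap (-1.50 ± 0.44, edgeR's quasi-likelihood test, adjusted p = 0.032). That call was lost without control replicate 1 (-0.73, adjusted p = 0.41), without control replicate 2 (adjusted p = 0.066), without ex14D replicate 2 (adjusted p = 0.35) and with DESeq2 (adjusted p = 0.070).

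Otx2, which drives the exit from the naive state, rose from 385.3 and 309.4 CPM to 663.7 and 791.7 CPM (1.52 ± 0.21, edgeR's quasi-likelihood test, adjusted p = 1.77e-05). It stayed past the threshold in all 10 alternative fits. Those fits compare the H3K27me3 libraries only. In the difference between the genotypes in H3K27me3 over input, 0 of 31 tested genes of the wider list were called, Otx2 included. For EZH2, 2 of 20 tested fell and 0 rose, with a median of 0.02, where 7.88% and 0.0522% of all genes did. Prdm14, which represses differentiation genes, fell from 40.04 and 35.0 CPM to 21.9 and 19.5 CPM (-0.90 ± 0.09, adjusted p = 0.0036), and Nr5a2, a nuclear receptor, from 148.2 and 155.4 CPM to 125.6 and 126.2 CPM (-0.31 ± 0.05, adjusted p = 0.0081). Both calls were lost when either control library was left out, and that of Nr5a2 with DESeq2 (adjusted p = 0.15).

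Relative to input in control, 5 of 31 tested genes of the wider list were higher and 9 lower by edgeR's quasi-likelihood test, where 25.2% and 12.8% of all genes were. With library size over genes as the scale, 4 were higher and 23 lower. The highest were Otx2 (4.43 on the log2 scale), Tbx3 (3.45), Nr0b1 (3.04) and Prdm14 (2.80), and the lowest Tdgf1 (-3.50), Jarid2 (-2.76), Trim28 (-2.59) and Dppa2 (-2.37). In ex14D, 3 were higher, Otx2 (6.41), Tbx3 (3.98) and Prdm14 (2.10), and 5 lower, of which Tdgf1 (-1.69), Rif1 (-1.66), Trim28 (-1.57) and Mybl2 (-1.42) were the largest. With DESeq2, 1 gene of all tested was lower than input in control and 0 in ex14D, against 489 and 20 at an unadjusted p under 0.05.

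Lists of other kinds frame these levels. The median H3K27me3 level in the 4 libraries was 10.3 to 30.3 CPM over the 9 members, 8.96 to 11.8 CPM over all genes, 3.20 to 5.61 CPM over 78 ribosomal protein genes and 455.6 to 987.2 CPM over the 7 developmental genes the study examined by ChIP-PCR. The 30.3 CPM of the members is that of control replicate 1, and in the other 3 libraries their median was 10.3 to 12.8 CPM. None of the 78 ribosomal protein genes had a peak or a domain over the window in both libraries of a genotype. Of the 7 developmental genes, 6 had both in both genotypes, the exception being Runx2. Their median level was 620.9 and 455.6 CPM in control and 867.7 and 987.2 CPM in ex14D. By edgeR's quasi-likelihood test 5 of the 7 rose and 1 fell in ex14D. The study reported lower H3K27me3 in ex14D cells by Western blot, and less of it at these genes by ChIP-PCR. Counts scaled within each library do not show a loss shared by all promoters, so a rise or fall here is relative to other genes.

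The genes whose counts over the 6 promoter-counted libraries were most like those of 3 members were found by the smallest Euclidean distance on log2(CPM + 1). The nearest to Klf2 was Bnc2 at a distance of 0.86, with 134.6 and 27.7 CPM in control and 10.3 and 8.01 CPM in ex14D. The gene was chosen for this likeness, so a shared high library follows from the choice. Nearest to Utf1 was Olfr356 at 0.15, and nearest to Klf4 was March11 at 0.39, with 175.0 and 107.8 CPM in control and 45.5 and 44.1 CPM in ex14D. The genes next to Klf4 on either side, Gm12505 and Actl7b, and those next to Klf2, Ap1m1 and Eps15l1, had 0.80 to 28.8 H3K27me3 CPM, below the 50.5 CPM of the lowest Klf4 library, and none of the 4 was called in ex14D against control (Gm12505, Ap1m1 and Eps15l1 were too low to test).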

How the data were processed

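The authors aligned the reads to mm10 with Bowtie (Bowtie2 in the submitters' processing notes) and counted them per gene with HTSeq. The deposited count tables hold raw, unscaled whole numbers. MACS2 broad peaks were deposited for each H3K27me3 library with a fold enrichment ratio and −log10 p and q, and which control library was given to MACS2 is not given in the sources used here. EZH2 domains (hiddenDomains) were deposited as positions. The H3K27me3 domain files were not used because some positions run past the ends of the GRCm38 chromosomes. Rows without a gene name took 92.4% to 98.1% of counted reads for input and H3K27me3 and 55.7% to 56.1% for EZH2. They were left out of CPM, of library size over genes and of the library sizes used with TMM scaling. The totals of all counted reads include them, and the ratios to input given for single libraries are scaled by these totals.

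Of 24500 genes, 24347 were placed on GRCm38 with RefSeq. Counts were tested in R 4.3.3 with the quasi-likelihood test of edgeR 4.0.16 (TMM scaling, low counts removed by filterByExpr). P-values were adjusted by Benjamini-Hochberg over all genes tested with a threshold of 0.05. The SE of a log2 change was taken from the change and its F statistic and is approximate. Alternatives were DESeq2 1.42.0, other scalings, no filter, a replicate block and each library left out, in which case the single library of a group is assumed to vary like those of the other. No spike-in is named in the sources used here, so a change shared by all promoters could not be seen. A peak or domain was assigned by at least 1 bp of overlap with the 1 kb window. Intervals on ratios are exact and cover counting error only.

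The members and lists were chosen with earlier results of these data known. All 9 members are named. Of the wider list, genes past the threshold are named, at most 4 per comparison and direction by size. Likeness is given for the 3 members with the largest H3K27me3 change among those tested, and neighbours for members past the threshold.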

Additional observations from a re-analysis of the deposited data

Results flagged for a closer look

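At Klf2 the H3K27me3 level relative to input differed between the genotypes, by -3.19 ± 0.75 on the log2 scale (ex14D against control, edgeR's quasi-likelihood test, adjusted p = 0.026). It is given here because the difference between the genotypes was itself tested. With all counted reads as the scale, the ratio to input was 11.3 and 2.22 in control and 0.54 and 0.83 in ex14D, where the exact 95% intervals of the latter, 0.24 to 1.16 and 0.41 to 1.64, include 1. In CPM over gene rows control replicate 2, at 22.4, was below its input, at 31.8. Control replicate 1 held 72 reads against 21 in replicate 2, and each genotype had 1 input library, with 13 and 23 reads. With all counted reads as the scale the call was lost (-3.23, adjusted p = 0.062). Over the alternatives the adjusted p ran from 0.00012 without control replicate 2 to 1.00 with DESeq2, and without control replicate 1 the difference was -1.60 (adjusted p = 0.66).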

How the results depend on the processing

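The number of members past the threshold for H3K27me3 in ex14D against control was 2, and 1 with all counted reads as the scale, 1 with DESeq2 and 0 to 1 when a library was left out. The median change of the members for H3K27me3 was -0.55 with library size over genes as the scale, and 0.08 without control replicate 1. For EZH2 the number was 1, and 0 to 1 when a library was left out, where the median ran from -0.21 to -0.0062. Members called relative to input in control numbered 5 (2 higher, 3 lower), but 6 with library size over genes as the scale (1 higher, 5 lower), 1 with DESeq2 and 2 to 3 when a library was left out. In ex14D they numbered 1, but 8 with library size over genes as the scale, under which Esrrb (-1.81), Tfcp2l1 (-1.37) and Utf1 (-1.82) turned below input. For the difference between genotypes over input the number was 1, and 0 with all counted reads, 0 with DESeq2 and 0 to 1 when a library was left out. Members with an H3K27me3 peak in control numbered 1, and 2 with a window of 5 kb, 0 when 500 bp had to be covered and 1 to 2 when a library was left out. In ex14D they numbered 1, and 0 when 500 bp had to be covered and 0 with q under 0.001. Where only the setting differs, the cause was not tested.

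Deviations of same-numbered libraries from their group means correlated at -0.10 for H3K27me3 and -0.03 for EZH2. With 2 libraries per genotype, this cannot decide whether the replicate numbers pair the libraries. With the replicate number as a block, 1 member (Klf2) was past the threshold for H3K27me3, since Klf4 had an adjusted p of 0.077, and 1 for EZH2. Over all genes the block moved the H3K27me3 calls from 475 lower and 871 higher to 406 and 755. A crossed pairing, chosen after seeing the data, gave 795 and 1185. Other counts over all genes also moved, for H3K27me3 to 2130 lower and 398 higher with library size over genes as the scale and to 266 lower with DESeq2, and for EZH2 from 7 higher to 47 with library size as the scale, 33 with all counted reads and 0 with DESeq2. Relative to input in control, the scale by library size moved 2721 lower and 5349 higher to 12968 and 2981, and in ex14D 1312 and 4446 to 15656 and 2406. With a library left out the H3K27me3 calls ran from 73 to 610 lower and 255 to 797 higher, the EZH2 calls from 0 to 1561 lower and 0 to 81 higher, and those for the difference over input, 11 lower and 27 higher, from 0 to 30 and 0 to 33. The latter were 27 and 8 with library size over genes as the scale and 5 lower with all counted reads. Genes lower than input fell in number to 1621 and 1306 without a control library and to 464 without ex14D replicate 1.

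Depth limits the H3K27me3 values, since Pou5f1, Sox2, Zfp42 and Utf1 rest on 1 to 24 reads per library, and 3 of these 4 were too low to test between the genotypes.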
